A study of Mus musculus with 3 samples.

Results

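The regions described here are sites of retinoid X receptor α (RXRα) binding in mouse liver that lay inside protein-coding genes and more than 10 kb from the start of any protein-coding gene. They numbered 14144 of 42117 RXRα regions in all, which was 33.6% (95% Wilson interval 33.1 to 34.0%). The data came from chromatin immunoprecipitation followed by sequencing (ChIP-seq) of livers from male wild type C57BL/6 mice at 3 months of age, and no drug or genotype was compared. There were 3 libraries, 1 precipitated with an anti-RXRα antibody, 1 precipitated with an anti-RARα antibody and 1 of input chromatin that was not precipitated. With 1 library per antibody there was no replicate, and no p-value is given. All intervals are 95% Wilson intervals that cover counting error only and treat regions and genes as independent. Whole liver was used, so the signal of hepatocytes cannot be told apart from that of stellate, endothelial, Kupffer or bile duct cells.

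The members were chosen by their RXRα signal. The deposited RXRα and input signals, in bins of 32 bp, were scaled to the same mean. Numbers of reads per bin are counts in these deposited signals and not the full depth of the libraries. Bins qualified if their RXRα signal was at least 20-fold that of the input at the same place, with the input set to no less than its genome mean of 0.603, and qualifying bins separated by up to 200 bp formed 1 region. Of all bins of the nuclear genome, 0.216% passed. The region midpoint was then placed on the NCBI37/mm9 genome with the GENCODE M1 genes. The ratio and the position are therefore descriptions of the selected regions and not findings about them. RARα peaks, sequence and transcript starts inside the gene did not enter the selection.

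RXRα is a nuclear receptor that binds DNA mostly as the shared partner of other nuclear receptors, among them RARα, PPARα, LXR, FXR, PXR and the thyroid hormone receptors. Each member of the pair contacts a short sequence close to AGGTCA, the half-site, and the spacing and orientation of the paired half-sites favor particular partners. Direct repeats are named by their spacer, so that DR1 has a spacer of a single base, and DR1 is the classical element of PPARα-RXRα and also binds HNF4α. DR4 is associated with LXR and the thyroid hormone receptors, DR5 and DR2 with RAR, and the inverted repeat IR1 with FXR, the bile acid receptor. Enhancers for such factors often lie in introns, and their target need not be the gene that holds them.

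To show what the paired elements looked like inside gene bodies, the members with the highest RXRα ratio among those with a mismatch-free element of each kind are given. Each line is 5′ to 3′ on the strand of the element, taken from the NCBI37/mm9 genome, and the capitals mark the complete element with its spacer.
Uspl1 DR1, chr5:150008324-150008352, plus strand: gtgtgtgtAGGTCAAAGGTCAacttggag
Dot1l DR1, chr10:80229402-80229430, minus strand: taataatcAGGTCATAGGTCAagcaaagc
Zfp385a DR2, chr15:103154174-103154203, minus strand: ggtagtcgAGGTCATCAGGTCAatgcccct
Optn DR2, chr2:4956387-4956416, plus strand: gggatcacAGGTCACCAGGTCAaaatataa
Pigk DR3, chr3:152396623-152396651, minus strand: gttcaggAGGTCAGGGAGGTCAggaggtc
Nrp2 DR3, chr1:62767563-62767591, plus strand: gcctaaaAGGTCACAGAGGTCAgaaagaa
Rgs6 DR4, chr12:84156984-84157013, plus strand: gttttagAGGTCACTAGAGGTCActggagc
Stxbp6 DR4, chr12:46029519-46029548, plus strand: agaggaaAGGTCAGGAAAGGTCAgtgccct
Maml3 DR5, chr3:51554198-51554226, minus strand: agctagAGGTCACAGAGAGGTCAtggaga
Pdlim1 DR5, chr19:40301455-40301483, minus strand: tccctgAGGTCAATGATAGGTCAatgccc
Grm8 IR1, chr6:27918007-27918035, plus strand: caacctggAGGTCATTGACCTtttgagca
Itpr1 IR1, chr6:108409060-108409088, plus strand: gttggctcAGGTCAGTGACCTgcctggat

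All 12 of these elements lay in introns. The strongest of their regions was that in intron 2 of Zfp385a, which encodes a zinc finger protein, with 121 RXRα reads against 1 input read in the summit bin, a highest ratio of 199 and a RARα peak of score 31. In intron 3 of Grm8, a glutamate receptor gene, the IR1 lay 11 bp from the summit, where 102 RXRα reads stood against 0 input reads. The IR1 of Itpr1, which encodes a calcium release channel of the endoplasmic reticulum, lay 2 bp from a summit of 72 RXRα reads and 0 input reads. The 2 DR3 elements stood apart from the others, because their regions were weak. The Pigk region held 15 RXRα reads and the Nrp2 region 14, both against 0 input reads, and the copies of AGGTC in the Pigk sequence run on beyond the element. Mismatch-free elements were rare in every class, with 49 members for DR1, 17 for DR2, 3 for DR3, 9 for DR4, 8 for DR5 and 13 for IR1.

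**Figure D1:**
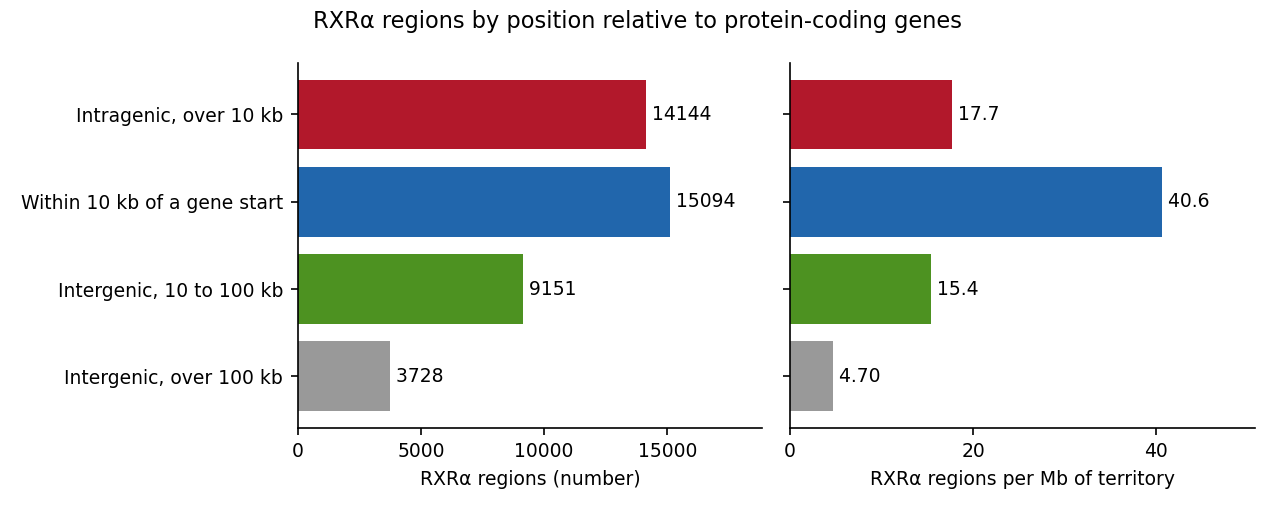
Number of RXRα regions (left) and regions per Mb of genome of the same class (right) for 4 positions relative to protein-coding genes, 1 RXRα library. The intragenic regions were nearly as many as those within 10 kb of a gene start but were less dense, at 17.7 against 40.6 per Mb.

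The sequence that could hold a member, inside a gene body and more than 10 kb from every gene start, came to 801 Mb, so the members had a density of 17.7 per Mb. The density was 40.6 per Mb within 10 kb of gene starts, 15.4 per Mb in intergenic sequence at 10 to 100 kb and 4.70 per Mb in intergenic sequence beyond 100 kb. Introns held 93.2% of the members, which was close to the 94.0% of the same sequence that is intronic. Coding exons held 2.71% of members and 2.51% of that sequence, and exons outside the coding sequence held 2.91% and 2.20%. The annotated exon and intron structure therefore differed little between the members and the sequence they were drawn from.

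The members and this sequence differed more in their distance from the gene start. Members at 10 to 20 kb from the nearest start made up 25.8% of all members, compared to 16.5% of the sequence. Beyond 100 kb the order was the opposite, with 17.9% of members and 34.0% of the sequence. Of the 13304 members that lay in an intron of the longest coding transcript of a host, 29.5% were in intron 1, 18.3% in intron 2 and 52.2% in later introns. The shares of the available sequence in these introns were not measured, so the values have no background to be read against. Members also lay near each other. The median distance from a member to the next was 4.18 kb, and 53.6% had another member within 5 kb. A total of 290 members lay in more than 1 gene body.

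In the selected regions the summit bin held a median of 30 RXRα reads (range 13 to 341) and a median of 1 input read. The highest ratio of any bin had a median of 35.0, compared to 34.0 within 10 kb of gene starts and 36.5 in intergenic regions at 10 to 100 kb. The counts in the input were small, and 44.8% of members had 0 input reads in the summit bin and 32.8% had 1. A bin with 0 input reads passed from 13 RXRα reads, one with 1 input read from 21 and one with 3 from 61. A width of a single bin was found for 2831 members, and 896 (6.33%) had a ratio of 100 or more. The 5 members just above the ratio threshold had ratios of 20.20 to 20.33, and the 5 regions just below it were at 19.9987. The 5 members nearest to a gene start lay at 10003 to 10012 bp, while the 5 intragenic regions just inside the limit lay at 9988 to 9996 bp.

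**Figure D2:**
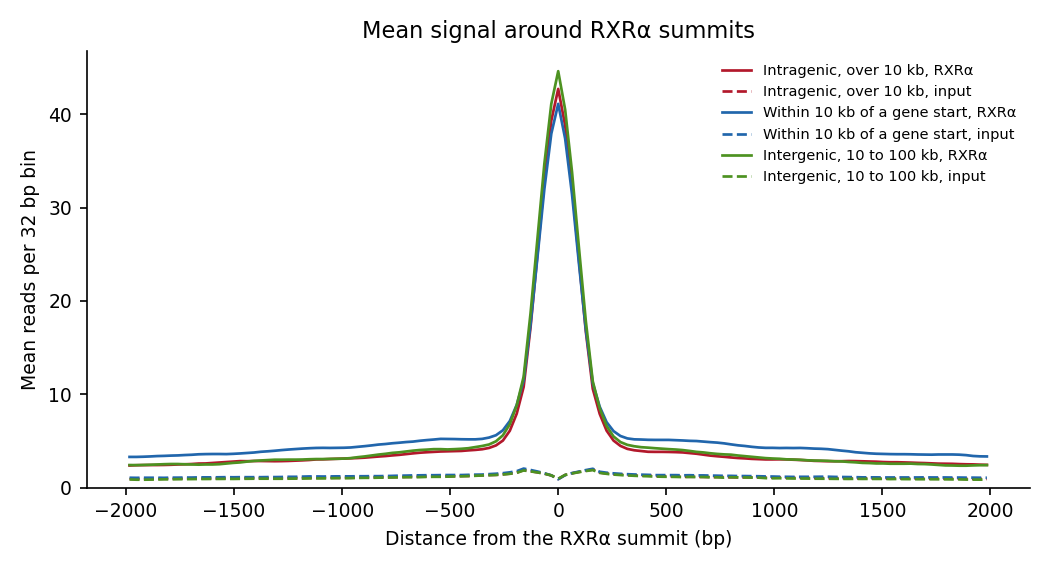
Mean RXRα signal (solid) and input signal (dashed), in reads per 32 bp bin, against distance from the RXRα summit for 3 classes of regions, 1 library each. The classes had nearly the same shape, with means of 42.7, 41.1 and 44.6 reads at the summit of intragenic, gene-start and intergenic regions.

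The mean RXRα signal at member summits was 42.7 reads per bin and fell to 17.2 reads at 128 bp on the side of lower coordinates and to 5.06 reads at 256 bp. At 1984 bp it was still 2.39 reads, above the genome mean. The input signal was 0.945 reads at the summit, 1.78 reads at 128 bp and 0.951 reads at 1984 bp on the same side. The dip of the input at the summit is where the selection required a low input.

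The 10 members with the highest ratio lay in 10 genes on 7 chromosomes, and their hosts were genes of varied function. The first was in intron 1 of Zfhx2, a homeobox transcription factor gene, at chr14:55698433-55698720, with 236 RXRα reads, 0 input reads and a ratio of 392. Intron 17 of Sec24d, a component of the coat of vesicles that leave the endoplasmic reticulum, held a member of 248 RXRα reads against 1 input read and a ratio of 383. A member with 213 RXRα reads and 0 input reads overlapped a coding exon of 3010026O09Rik, with a ratio of 353 and a RARα peak of score 53. All of the others were intronic, in Cpne5 (ratio 340), Stx1a (324), Ttc3 (322), Trrap (319), Cdk8 (312), 2900026A02Rik (307) and Agap1 (297). Those in Stx1a, Trrap, Cdk8 and 2900026A02Rik were all on chromosome 5. Stx1a encodes a syntaxin of membrane fusion, Trrap a scaffold of histone acetyltransferase complexes and Cdk8 the kinase of the Mediator complex. The Cdk8 member had the most RXRα reads of the 10, with 312 reads over 1 input read, at 52.9 kb from the nearest gene start. Of the 10, only the Cpne5 member lacked a RARα peak of any score, and 5 had a peak with a score over 20.

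Members were found in 4236 genes of the 12634 that had any sequence more than 10 kb from every gene start, which was 33.5% (32.7 to 34.4%). Of these host genes, 1729 held 1 member, 821 held 2, 1412 held 3 to 9 and 274 held 10 or more. The 274 genes with 10 or more held 4244 of the members. The share of genes with a member was higher for longer genes, from 14.9% (13.9 to 15.8%) of genes with up to 20 kb to 75.5% (68.9 to 81.1%) of genes with over 500 kb. The density went the other way, from 27.3 to 7.08 members per Mb, so the largest genes had the most members but not the densest.

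Host genes also had RXRα at their own start more often than other genes of like length. Among genes with 100 to 200 kb available, 52.8% (49.1 to 56.5%) of those with a member and 18.8% (15.6 to 22.6%) of those without had an RXRα region within 10 kb of their start. The same comparison gave 69.7% against 41.4% up to 20 kb and 40.7% against 9.91% at 200 to 500 kb. In all, 1736 host genes (41.0%) had no RXRα region within 10 kb of their start.

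The 10 genes with the most members included several transcription regulators. Zbtb20, a zinc finger repressor abundant in hepatocytes, held 40 members in 737 kb, 12 of them with a RARα peak over 20. Rora, the nuclear receptor RORα, held 36, and none of its RXRα regions lay within 10 kb of its own start. Rbm47, an RNA-binding protein gene, and Zmiz1, a transcriptional coregulator gene, held 33 each, at 225 and 178 per Mb. Prkce, protein kinase Cε, held 33, Itpr1 held 31 and Arhgap26 held 38. Some of these bodies hold the starts of other genes in the annotation, and a member there can lie in such a gene as well. Arhgap26 holds 2 other gene starts and Zbtb20, Prkce and Zmiz1 hold 1 each. The 3 other genes of this group hold more. Gm20388 (154 members) holds 73 other gene starts, Fgfr2 (58 members) holds 31 and Arfip1 (32 members) holds 5. Members whose only hosts were genes with 5 or more other starts inside numbered 127 (0.898%).

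**Figure D3:**
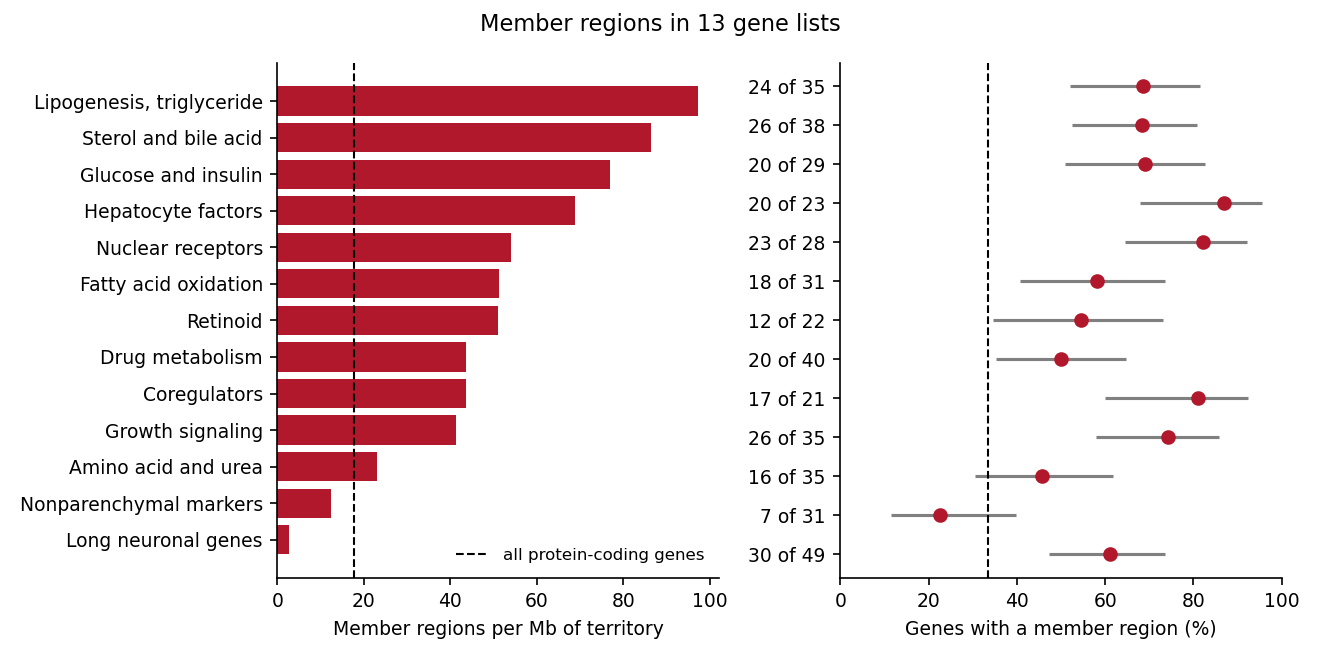
Members per Mb of available sequence (left) and share of genes with at least 1 member with its 95% Wilson interval (right) for 13 gene lists, with the value for all protein-coding genes as a dashed line. The lists of lipogenesis and triglyceride, sterol and bile acid, and glucose and insulin genes had the most members per Mb, while markers of other liver cells and long neuronal genes lay below all genes, at 12.3 and 2.76 against 17.7 per Mb.

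Genes of liver metabolism and of nuclear receptor signaling held more members per Mb than the 17.7 of all genes, and the lists were chosen with earlier results on these data known. The value of all genes is weighted by very long genes, and genes with up to 20 kb, 20 to 50 kb, 50 to 100 kb and 100 to 200 kb available held 27.3, 24.6, 24.3 and 20.7 members per Mb. In the same length classes 14.9%, 34.6%, 53.7% and 59.9% of genes held a member. The genes of lipogenesis and triglyceride metabolism were the densest, with 147 members or 97.3 per Mb, and 24 of 35 available genes (68.6%, 52.0 to 81.4%) had a member. Lipc, hepatic lipase, held 16 members in 124 kb, and Pcx, pyruvate carboxylase, held 16 in 85.2 kb. Elovl6, a fatty acid elongase, and Acaca, the carboxylase that makes malonyl-CoA, held 12 each. In Elovl6 none of the 12 overlapped a RARα peak over 20, although 7 overlapped a peak of some score. The strongest Pcx member had 103 RXRα reads against 1 input read and lay 17 bp from an annotated coding transcript start. Dgat2, which makes triglyceride from diacylglycerol and was chosen after its values were seen, held 10 members in 19.1 kb, 8 of them with a RARα peak over 20.

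In sterol and bile acid metabolism, 26 of 38 genes (68.4%, 52.5 to 80.9%) held 145 members, at 86.5 per Mb. Abca1, the cholesterol efflux transporter, held 17 members in 119 kb, and 6 overlapped a RARα peak over 20. Its strongest member was in intron 1, 15.6 kb from the gene start, with 81 RXRα reads, 1 input read and a RARα score of 38. Stard13, of the family of lipid transfer domain proteins, held 21 members. The oxysterol-binding protein genes Osbpl1a and Osbpl9 held 14 and 11, and neither had an RXRα region within 10 kb of its own start. Cyp7b1, the oxysterol 7α-hydroxylase, held 3 members with ratios of 31.5 to 101, all overlapping some RARα peak. Cyp51, lanosterol demethylase, held a single member of 39 RXRα reads against 1 input read, without a RARα peak.

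The genes of glucose metabolism and insulin action had 76.9 members per Mb, in 20 of 29 genes (69.0%, 50.8 to 82.7%). Insr, the insulin receptor, held 17 members, and its strongest overlapped a coding exon, with 45 RXRα reads against 1 input read. Igf1, the growth factor secreted by liver under growth hormone, held 14 members, of which 12 overlapped a RARα peak over 20 and all 14 overlapped a peak of some score. Foxo3, a transcription factor restrained by insulin, held 13, and Pik3r1, the regulatory subunit of PI 3-kinase, held 11. The strongest Pik3r1 member had 168 RXRα reads against 3 input reads, a highest ratio of 262 and a RARα score of 28. In fatty acid oxidation, 18 of 31 genes (58.1%, 40.8 to 73.6%) held 45 members, at 51.3 per Mb, and 44.4% (30.9 to 58.8%) of these overlapped a RARα peak over 20, compared to 17.6% of all members. Over the other lists this share ran from 10.6% in long neuronal genes to 32.4% in amino acid and urea genes, and it was 15.2% in coregulators, 16.7% in growth signaling genes and 17.4% in retinoid genes. Acsl1, the main long-chain acyl-CoA synthetase of liver, held 9 members and all 9 overlapped a RARα peak over 20. They made up 9 of the 20 such members in fatty acid oxidation, so the share of that list rested in large part on this gene. Eci2, an enoyl-CoA isomerase, held 5, of which 4 overlapped a RARα peak over 20. Cd36, a fatty acid transporter, held 5 and Acot12, an acetyl-CoA hydrolase, held 4, with 1 RARα peak over 20 in each.

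Genes of the nuclear receptors themselves held members in 23 of 28 cases (82.1%, 64.4 to 92.1%), 217 members in all and 54.1 per Mb. Rara was the densest of the receptor genes, with 18 members in 35.2 kb or 511 per Mb, 4 of them within 1 kb of another transcript start. The strongest of the 18 had 98 RXRα reads against 2 input reads and lay 182 bp from such a start, in an exon outside the coding sequence. Rxra held 12 members, all overlapping some RARα peak and 5 overlapping one over 20, and its gene had 7 further RXRα regions within 10 kb of its start. Thrb, a thyroid hormone receptor, held 29, and Esr1, the estrogen receptor α, held 14 with 0 RARα peaks over 20. Among receptors chosen after their values were seen, Hnf4a held 12, of which 10 overlapped a RARα peak over 20, Ppara held 11, and Nr1h4, which encodes FXR, held 9. In the coregulators 17 of 21 genes (81.0%) held 105 members, at 43.6 per Mb. Rere held 27, and the coactivator genes Ppargc1b and Ncoa2 held 10 and 9.

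Genes of transcription factors known in hepatocytes held a member in 20 of 23 cases (87.0%, 67.9 to 95.5%), at 68.9 per Mb. Their median available length was 58.1 kb, and 53.7% of all genes with 50 to 100 kb held a member. Besides Zbtb20, the highest counts were 26 in Zbtb16, 25 in Nfia and 22 in Nfib. Of the Zbtb16 members 24 overlapped some RARα peak, and 12 one over 20. The genes of drug metabolism held 59 members, at 43.6 per Mb, in 20 of 40 genes (interval 35.2 to 64.8%). Por, the reductase that supplies electrons to all microsomal cytochromes P450, held 16 of these in 54.2 kb, or 295 per Mb, and 10 overlapped a RARα peak over 20. Its strongest member had 212 RXRα reads against 4 input reads and a RARα score of 52. Ephx1, an epoxide hydrolase, held 5, while Cyp2c29 and the efflux transporter gene Abcg2 held 6 each without an RXRα region within 10 kb of their starts.

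Retinoid genes offered 0.450 Mb of available sequence and held few members in number. In 12 of 22 genes (54.5%, 34.7 to 73.1%) there were 23 members, at 51.1 per Mb. Dhrs3, which reduces retinaldehyde to retinol, held 6 members in 25.4 kb beside 8 RXRα regions within 10 kb of its start. Adh1, Stra6, Rdh16 and Aldh3a2 held 2 each. The strongest Adh1 member had 78 RXRα reads against 1 input read, and the Stra6 members had ratios of 86.3 and 97.9. Cyp26a1, the retinoic acid hydroxylase, and the lipid genes Apoa4 and Elovl1 have no sequence more than 10 kb from a gene start, and their RXRα regions were 4, 4 and 3 within 10 kb. Abhd5, the coactivator of adipose triglyceride lipase, held 4 members, none with a RARα peak.

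Genes of amino acid and urea metabolism, with a median of 20.8 kb available, held 34 members, at 23.1 per Mb, which was below the 24.6 of all genes with 20 to 50 kb. A member was found in 16 of 35 genes (45.7%, 30.5 to 61.8%), with 5 in Gldc, 4 in Pcca, 3 in Got1 and 3 in Kmo. Growth signaling genes held 246 members, at 41.3 per Mb, in 26 of 35 genes (74.3%, 57.9 to 85.8%), and 54.6 per Mb without Fgfr2. Their median available length was 59.3 kb, and 53.7% of all genes with 50 to 100 kb held a member. After Fgfr2 and Prkce the counts were 17 in Prkca and 15 in Prkag2, a subunit of the energy sensor AMPK. Markers of nonparenchymal liver cells held 32 members, at 12.3 per Mb, in 7 of 31 genes (22.6%, 11.4 to 39.8%). Of those 32, 15 were in Stab2, a scavenger receptor of sinusoidal endothelium, 5 in Pecam1, 4 in Pkhd1 and 3 in Prom1. Pkhd1 and Reln, which held 4 and 1 members, offered 550 and 450 kb of the 2.60 Mb of this list. Its low density therefore rested in part on these long genes. Long neuronal genes held 132 members at 2.76 per Mb. Their share of genes with a member, 30 of 49 or 61.2% (47.2 to 73.6%), stood above the 33.5% of all genes. Their median available length was 915 kb, and of all genes with over 500 kb 75.5% (68.9 to 81.1%) held a member. The share of the long neuronal genes was thus lower than that of genes of like length, with overlapping intervals. The most were 18 in Ptprd, followed by 11 in Grm8, 8 in Robo1 and 7 in Negr1.

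RARα was measured in a separate library. Of the members, 2484 or 17.6% (16.9 to 18.2%) overlapped a RARα peak with a score over 20 by at least 25% of the narrower interval, compared to 25.1% of all RXRα regions. The share was 39.4% (38.7 to 40.2%) within 10 kb of gene starts, 18.4% (17.7 to 19.2%) in intergenic regions at 10 to 100 kb and 11.6% (10.7 to 12.7%) beyond 100 kb. With RARα peaks of any score it was 48.7% (47.8 to 49.5%), against 53.3% of all regions. The members were therefore close to the intergenic regions at 10 to 100 kb and far below the regions near gene starts. Among the latter the share was 67.1% (65.8 to 68.3%) within 1 kb of the gene start and 25.5% (24.4 to 26.7%) in intragenic regions at 1 to 10 kb.

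**Figure D4:**
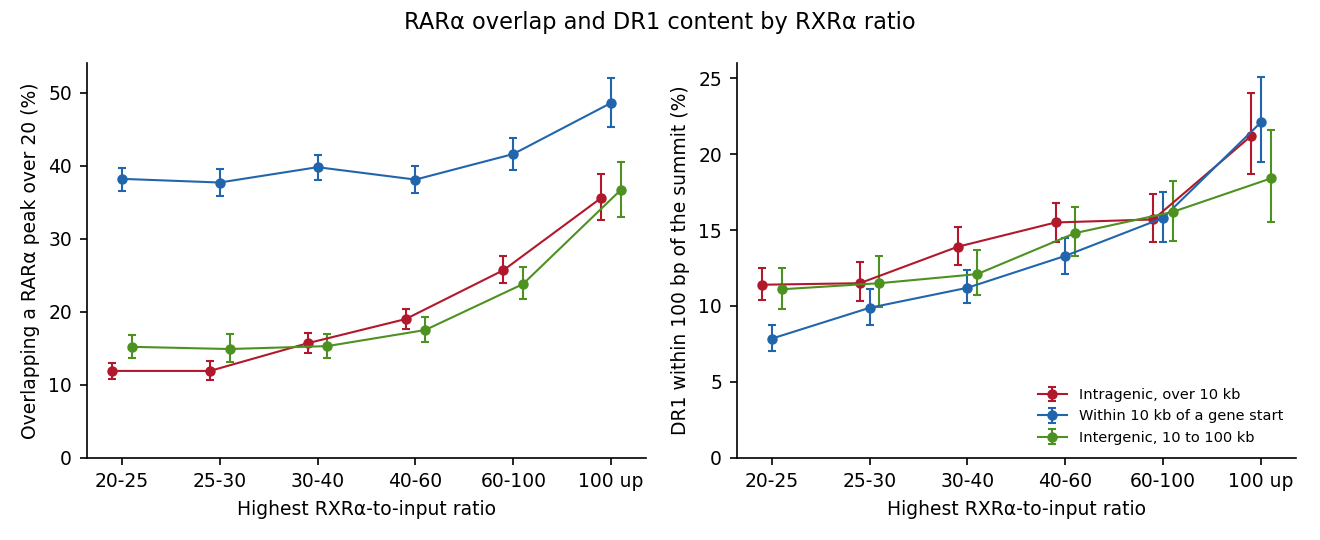
Share of regions that overlapped a RARα peak with a score over 20 (left) and that held a DR1 within 100 bp of the summit (right), by the highest RXRα ratio, for 3 classes, with 95% Wilson intervals. In intragenic regions RARα overlap went from 11.9% at ratios of 20 to 25 to 35.6% at 100 or more, and DR1 from 11.4 to 21.2%.

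RARα overlap was higher at members with a higher RXRα ratio. It was 11.9% (10.7 to 13.3%) at ratios of 25 to 30, 19.0% (17.6 to 20.4%) at 40 to 60 and 35.6% (32.5 to 38.8%) at 100 or more. Intergenic regions at 10 to 100 kb had a similar rise, from 15.2% at ratios of 20 to 25 to 36.7% at 100 or more. Near gene starts the share was already 38.2% at ratios of 20 to 25 and 48.6% at 100 or more. Across the 6882 members with any RARα peak, the Spearman correlation of the ratio with the RARα score was only 0.135, and it was -0.106 over those with a score over 20. These points share libraries, and no test is given.

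The 5 highest RARα scores at members included 4 on single-bin RXRα members with fewer reads than the member median of 30. The peak of score 242 overlapped a member in intron 14 of Alb, the serum albumin gene, which had 14 RXRα reads and 0 input reads in a single bin. Tex14 (score 181, 23 RXRα reads), Ttc39c (175, 16 reads) and Ndel1 (168, 16 reads) also had single-bin members, and these lay 437, 243 and 33 bp from an inner transcript start. The member in intron 5 of Amn1, with a score of 174, was the exception, at 480 bp wide with 51 RXRα reads against 2 input reads and a ratio of 58.1. Seen from the RARα list, 7964 peaks with a score over 20 had their summit in the sequence that could hold a member, or 9.95 per Mb, and 31.3% (30.3 to 32.4%) of them overlapped a member. Within 10 kb of gene starts such peaks numbered 48.7 per Mb. With every RARα peak the share that overlapped a member was 14.5% (14.2 to 14.8%). The overlap of RARα peaks elsewhere with RXRα regions is not given, so these shares have no background.

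A subset of members lay at coding transcript starts inside gene bodies, and such a start could belong to the host or to another gene. The gene start used for the selection was the outermost one, and 530 members, or 3.75% (3.45 to 4.07%), lay within 1 kb of another annotated coding transcript start, compared to 1.18% of the available sequence. Another 217 members (1.53%) lay within 1 kb of the start of a non-coding gene or pseudogene, compared to 0.871% of that sequence, and the 2 counts may share members. The members at inner coding starts overlapped a RARα peak over 20 in 43.6% (39.4 to 47.8%) of cases, against 16.5% (15.9 to 17.2%) of the others, and in 52.2% (47.1 to 57.3%) within 500 bp of the start. Their median GC content was 51.7%, against 47.8%, and a DR1 was found in 9.06% (6.90 to 11.8%) of them, against 14.2% (13.6 to 14.8%). In these respects they lay between the other members and the regions within 1 kb of gene starts, which had 67.1% RARα overlap and 6.67% with a DR1. Named genes whose strongest member lay at such a start included, besides Pcx and Rara, Fgfr2 (49 bp), Lipc (55 bp), Ptprd (83 bp), Acaca (117 bp) and Osbpl1a (356 bp). The distance was to the nearest coding transcript start of any gene. The Fgfr2 body holds 31 other gene starts, that of Acaca 2 and those of Pcx, Lipc and Ptprd 1 each. In these genes the start is not shown to be that of the host. The strongest Lipc member had 131 RXRα reads against 2 input reads, and the strongest Acaca member had 36 against 0.

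Sequence was searched in 201 bp around each summit, on both strands, with up to 2 mismatches to the paired elements. A DR1, AGGTCANAGGTCA, was found at 1978 members or 14.0% (13.4 to 14.6%), against 3.55% of windows 500 bp to either side and 2.61% of windows placed evenly over the available sequence. Among all RXRα regions the share was 12.9%, against 3.29% of their flanks, and it was 11.7% near gene starts and 13.4% in intergenic regions at 10 to 100 kb. DR1 was the most frequent paired element. DR2 (AGGTCANNAGGTCA) was found at 7.33% of members against 2.81% of flanks, DR3 (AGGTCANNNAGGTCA) at 5.63% against 2.43%, DR4 (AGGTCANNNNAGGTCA) at 7.25% against 2.37% and DR5 (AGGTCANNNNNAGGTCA) at 5.91% against 2.19%. IR1 (AGGTCANTGACCT) was found at 5.42% of members against 1.06% of flanks, the largest ratio of the paired elements at 5.09. ER6 (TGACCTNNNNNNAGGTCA), an everted repeat bound by PXR and CAR, was found at 2.55% against 0.951%. Intergenic regions at 10 to 100 kb held DR2 in 6.38% of cases, DR3 in 5.58%, DR4 in 7.16% and DR5 in 5.82%. They held IR1 in 4.91% and ER6 in 2.55%. These elements overlap in part, since all hold the same half-site.

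Any of these elements was found at 36.4% (35.6 to 37.2%) of members, 13.3% of flanks and 11.2% of the evenly placed windows. The share was 30.9% near gene starts, 35.1% in intergenic regions at 10 to 100 kb and 34.1% beyond 100 kb. It was thus not particular to the members. With a perfect AGGTCA half-site also counted, the share of members was 48.6% (47.8 to 49.4%) against 19.4% of flanks. About as many members therefore held no match to these letters in this window as held any. The share with a DR1 was higher at a higher RXRα ratio, with 11.4% (10.4 to 12.5%) at 20 to 25 and 21.2% (18.7 to 24.0%) at 100 or more. Between the same ratios it went from 7.85% to 22.1% near gene starts. In intergenic regions at 10 to 100 kb it went from 11.1% to 18.4%. Members with a RARα peak over 20 held a DR5 in 5.35% (4.54 to 6.31%) of cases and those without in 6.03% (5.61 to 6.48%), and DR2 gave 6.60% (5.69 to 7.65%) and 7.49% (7.02 to 7.98%). For both of these elements, which are classical for RAR, the intervals of the 2 sets overlapped. DR1, IR1 and the perfect half-site were less frequent at members with a RARα peak over 20. The shares were 12.2% (11.0 to 13.6%) against 14.4% (13.7 to 15.0%) for DR1 and 4.15% against 5.69% (5.28 to 6.12%) for IR1. For the perfect half-site they were 32.6% (30.8 to 34.4%) against 38.2% (37.3 to 39.0%). DR3 (5.27% against 5.71%), DR4 (7.45% against 7.20%) and ER6 (2.62% against 2.53%) had overlapping intervals. These shares were not compared at equal RXRα ratio.

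**Figure D5:**
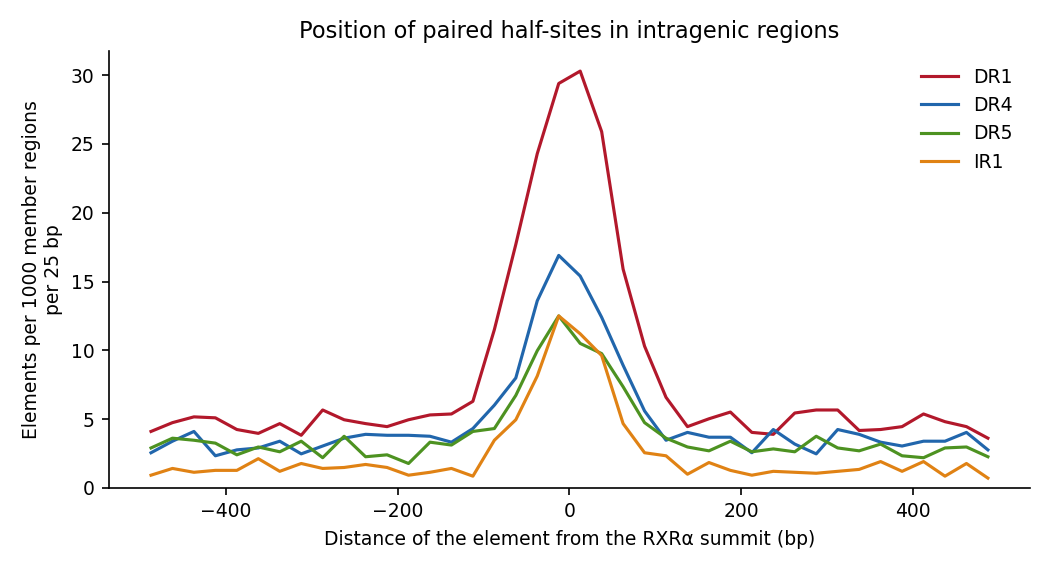
Number of DR1, DR4, DR5 and IR1 elements (up to 2 mismatches) per 1000 intragenic regions in steps of 25 bp, against distance from the RXRα summit. The DR1 reached 30.3 per 1000 in the 25 bp after the summit and between 3.61 and 6.58 beyond 100 bp.

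DR1, DR4, DR5 and IR1 elements, the 4 whose positions were counted, were most frequent at the summits, with positions counted along the chromosome. DR1 elements numbered 30.3 per 1000 members in the 25 bp after the summit and 29.4 in the 25 bp before it, and 5.30 at 150 to 175 bp before it. DR4 went from 16.9 in the 25 bp before the summit to 3.75 at 150 to 175 bp before it, and IR1 from 12.5 to 1.13. The bins are 32 bp wide, so a summit is not located more finely than that.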

How the data were processed

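Livers of male C57BL/6 mice gave 3 ChIP-seq libraries, which GEO's labels assign to RXRα, input and RARα. Per the submitters' processing notes, CASAVA 1.4, Bowtie and, for RARα, MACS were used. The RXRα and input files, as the authors deposited them, hold a signal, namely the whole number of extended reads that cover each 32 bp bin, without the empty bins. Each read covers 5 bins, and the totals of the deposited signals correspond to 9999939 RXRα reads and 9999292 input reads. These totals are nearly equal, and that of RXRα is below the number of uniquely mapped RXRα reads that the study reports. The read counts given here are therefore counts in the deposited signals and not the full depth of the RXRα library. The study gives no read number for the input. The mitochondrial genome held 0.261% of the RXRα signal and 3.64% of the input signal. The deposited RARα file lists 143280 peaks, each with a score whose scale is not given in the sources used here and a false discovery rate in percent, which was not used. The list itself gives no depth, and the study reports more uniquely mapped reads for RARα than for RXRα. The signal headers name NCBI37/mm9, although the study's methods also name a later build for alignment, and NCBI37/mm9 sequence and GENCODE M1 genes were used throughout.

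The threshold of 20 times input, the distance of 10 kb, the RARα score over 20 and the overlap of 25% follow the study's methods. The scaling, the joining within 200 bp and the overlap relative to the narrower interval were chosen for this work. The ratio of a region is the highest of its bins, and the summit is the bin with the most RXRα reads. Available sequence excludes unknown bases, and its composition was measured at 800739 positions 1000 bp apart and in 80093 windows of 201 bp. Motifs were counted without repeat masking. The members and the 13 gene lists were chosen with earlier results of these data known, and the motifs other than DR1 to DR5 and IR1 were added after the files were seen.

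Genes were named as the hosts of the 10 members with the highest ratio, the 10 hosts with the most members, the 4 genes with the most members in each list, the hosts of the 2 strongest members per element, the genes the study names in its binding results with Rxra, Rara and Cyp26a1, and the 5 members with the highest RARα score. A gene that this rule names is not reported here. The region caller and the motif scan were tested on simulated data. Computations used Python 3.11.15, numpy 2.4.6, pandas 2.3.3, scipy 1.17.1 and matplotlib 3.10.9. Repeat annotation, gene expression and binding of the partner receptors were not analysed here.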

Additional observations from a re-analysis of the deposited data

How the results depend on the processing

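Of 62 values recomputed under 17 alternatives, 41 stayed within 1.5 times the main count or inside the interval of the main share. The number of members was 29925 at 10 times input and 8725 at 30 times. Their share of all regions was 33.1% with the mean input alone, 24.9% at over 20 kb from gene starts and 27.9% with the starts of all coding transcripts. RARα overlap was 12.8% at 10 times input, 21.0% at 30 times, 16.5% at over 20 kb, 15.9% with the starts of all coding transcripts, 18.3% for members of at least 2 bins, 48.7% with every RARα peak and 1.94% with scores over 50. The share near another transcript start was 3.32% at over 20 kb, 2.59% within 500 bp and 5.82% within 2 kb, and it was 0 by construction where those starts served for the selection. The share with a DR1 was 11.9% at 10 times input, 15.2% at 30 times, 14.9% for at least 2 bins, 8.96% within 50 bp of the summit and 3.45% with at most 1 mismatch. The number of host genes stayed between 2961 and 6181. Leaving out gene bodies with the starts of 5 or more other genes, an alternative chosen after seeing the data, left 14017 members and moved none of the 6 results beyond these limits.

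No paired analysis was possible because each antibody has 1 library. With a median of 1 input read at the summit, a single read decides whether many weak regions pass. The RARα list holds called peaks only, so absence of a peak is not absence of RARα. Motif letters at a summit do not show which receptor was bound, and the gene that holds a region need not be its target.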

Other observations

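Sequences of other liver transcription factors were also more frequent at member summits than 500 bp away. The HNF4-like sequence CAAAGTCCA, which shares letters with DR1, was found at 1.98% (1.76 to 2.22%) of members and 0.286% of flanks. The HNF1-like sequence, with up to 1 mismatch, was found at 2.16% (1.93 to 2.41%) against 0.481%, the FOXA-like TGTTTAC at 990 members (6.59 to 7.43%) against 2.99% and the NFI-like sequence, with up to 1 mismatch, at 1.56% (1.36 to 1.77%) against 0.456%. HNF1, HNF4, FOXA and C/EBP are factors of hepatocyte identity. The C/EBP-like sequence TTGCNNAA differed between classes, with 16.5% (15.9 to 17.1%) of members, 13.2% (12.7 to 13.7%) near gene starts, 19.7% (18.9 to 20.5%) in intergenic regions at 10 to 100 kb and 25.7% (24.3 to 27.1%) beyond 100 kb. In flanks it was 8.36%, 7.31%, 7.98% and 9.44%.

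The CTCF-like sequence was rare and was unevenly spread over members. It was found at 34 members with a RARα peak over 20, or 1.37% (0.981 to 1.91%), and at 20 members without one, or 0.172% (0.111 to 0.265%), with 0.101% and 0.146% in their flanks.

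The DR1 elements lay less often on the coding strand of the host gene than on the other strand. Of 1917 members with a DR1 on 1 strand only, 43.8% (41.6 to 46.0%) had it on the strand of the host. In flanks the value was 47.6% (44.5 to 50.7%) of 990, and for elements with 0 to 1 mismatches it was 46.4% (42.0 to 50.8%) of 485. Repeat elements were not annotated here, and their part in this asymmetry was not tested.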
